A study of Mus musculus with 10 samples.

Results

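The p53 response and apoptosis genes are 45 genes that were picked by gene symbol from the 30719 genes of the count table. They are the 3 genes of the p53 family, 20 genes grouped here as p53 targets, 12 genes of the BCL2 family and 10 genes of caspases, the apoptosome and the inhibitors of apoptosis (IAPs). Whether p53 controls each of the 20 in the testis was not tested. All 45 were found and all 45 had enough reads to be tested. The study compared whole testes of 5 FXR-/- mice (KO), which lack the bile acid receptor FXRα encoded by Nr1h4, with those of 5 wild-type mice (WT) at postnatal day 10. Both groups had a mixed background of 129sv and C57Bl strains, each mouse gave 1 library, and the series used 1 flowcell. The labels name no drug, time course or other allele, and they do not say which stretch of Nr1h4 was removed or whether the mice of the groups were littermates. The null is not limited to a cell type by anything in the labels. Libraries are numbered as the mice are, KO 8 to 12 and WT 3, 4, 5, 6 and 9.

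p53 is a transcription factor that is stabilised by DNA damage and other stress, and that switches on genes for growth arrest, repair, metabolism and cell death. One of its targets, Mdm2, encodes the ubiquitin ligase that returns p53 to a low level. The intrinsic route to cell death runs through the BCL2 family, whose pore-forming effectors are BAX, BAK and BOK. Guardians such as BCL2, BCL-XL and MCL1 restrain BAX and BAK, and BH3-only proteins release BAX and BAK. Cytochrome c that leaves the mitochondria then assembles with APAF1 and the initiator CASP9 into the apoptosome, executioner caspases follow, and IAPs hold them back. In the young testis a wave of germ cell death accompanies the first round of spermatogenesis, and in mice it depends on Bax and is held back by Bcl2 and Bcl-xL.

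The libraries held 32330029 to 39655170 counts, and 18559 genes passed the filter on low counts. Levels are given in CPM, the counts of a gene relative to the size of its library after TMM scaling. Nr1h4 lay near the detection limit in both groups, with 8 to 13 counts in KO libraries and 13 to 26 counts in WT libraries, and the edgeR test called it lower in KO (fold change of -0.84 on the log2 scale, adjusted p = 0.0362). In whole testis, fewer cells of a type and less RNA per cell cannot be told apart. Genes were listed here as markers of a cell type, and whether each was limited to that cell type was not tested. In KO, 5 of 8 Sertoli cell markers were lower and 1 was higher. Their summed level ran over 2462 to 3654 CPM in KO and 3666 to 4530.1 CPM in WT, without overlap. Clu alone averaged 1613 CPM in KO and 2445 CPM in WT, so that sum mostly follows Clu. Taken singly, 4 of the 8 markers had groups that did not overlap, beside 11.6% of all genes. Among duct epithelium markers 6 of 7 were higher, with sums over 119 to 174 CPM in KO and 72.6 to 93.7 CPM in WT, also without overlap. Epcam alone averaged 70.6 CPM in KO and 46.8 CPM in WT, a large part of that sum. Of 8 germ cell markers 1 was higher, with sums over 1325 to 1724 CPM in KO and 979.8 to 1500.2 CPM in WT. All 8 had fitted values above 0, beside 53.3% of all genes. At an unadjusted edgeR p under 0.05, 4 of the 8 passed, beside 29.9% of all genes. Of 6 adipocyte markers 2 were higher, with sums over 68 to 889.6 CPM in KO and 20.9 to 122 CPM in WT, the highest of them in KO 9 and KO 10. Of 5 Leydig cell markers 1 was lower, with sums over 209 to 491 CPM in KO and 355 to 565 CPM in WT and the lowest in KO 8. Among markers of peritubular myoid cells, macrophages, endothelium and erythroid cells none passed, and 1 of 4 of skeletal muscle was lower. No listed marker was at 0 in any library. The part of these marker differences in the members' values was not tested.

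Most of the 45 genes differed little between KO and WT testes, and those that did pass the test went in both directions. Cdkn1a, Bik, Perp and Apaf1 were higher in KO, and Casp6, Sesn2, Bak1, Ddit4 and Bcl2l1 were lower, by 1.12-fold (Bcl2l1) to 1.49-fold (Casp6). That made 9 of 45 members (20%) at an adjusted p under 0.05, beside 13.8% of all tested genes. In the higher direction these were 4 members beside 6.09% of all genes, and in the lower direction 5 members beside 7.66% of all genes. The share of all calls that were higher in KO was 44.3% with this scaling, 52.6% with upper quartiles and 61.4% with library totals, while the called members had 4 higher under each of these. The KO and WT values of 6 members did not overlap, beside 11.6% of all genes. The median log2 fold change of the members was 0.00 and that of all tested genes 0.01, while the median size of the change was 0.09 for the members and 0.13 for all genes. The members' counts were thus close to the background and give no result about the list as a whole. Of the 45, 13 passed at an unadjusted p under 0.05, beside 29.9% of all genes. Fitted values lay above 0 in 23 members and below 0 in 22, beside 53.3% above 0 and 46.7% below 0 over all genes. DESeq2 and limma-voom called the same number by class as edgeR, 4 targets, 3 BCL2 family genes, 2 caspase and apoptosome genes and none of the p53 family.

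**Figure D1:**
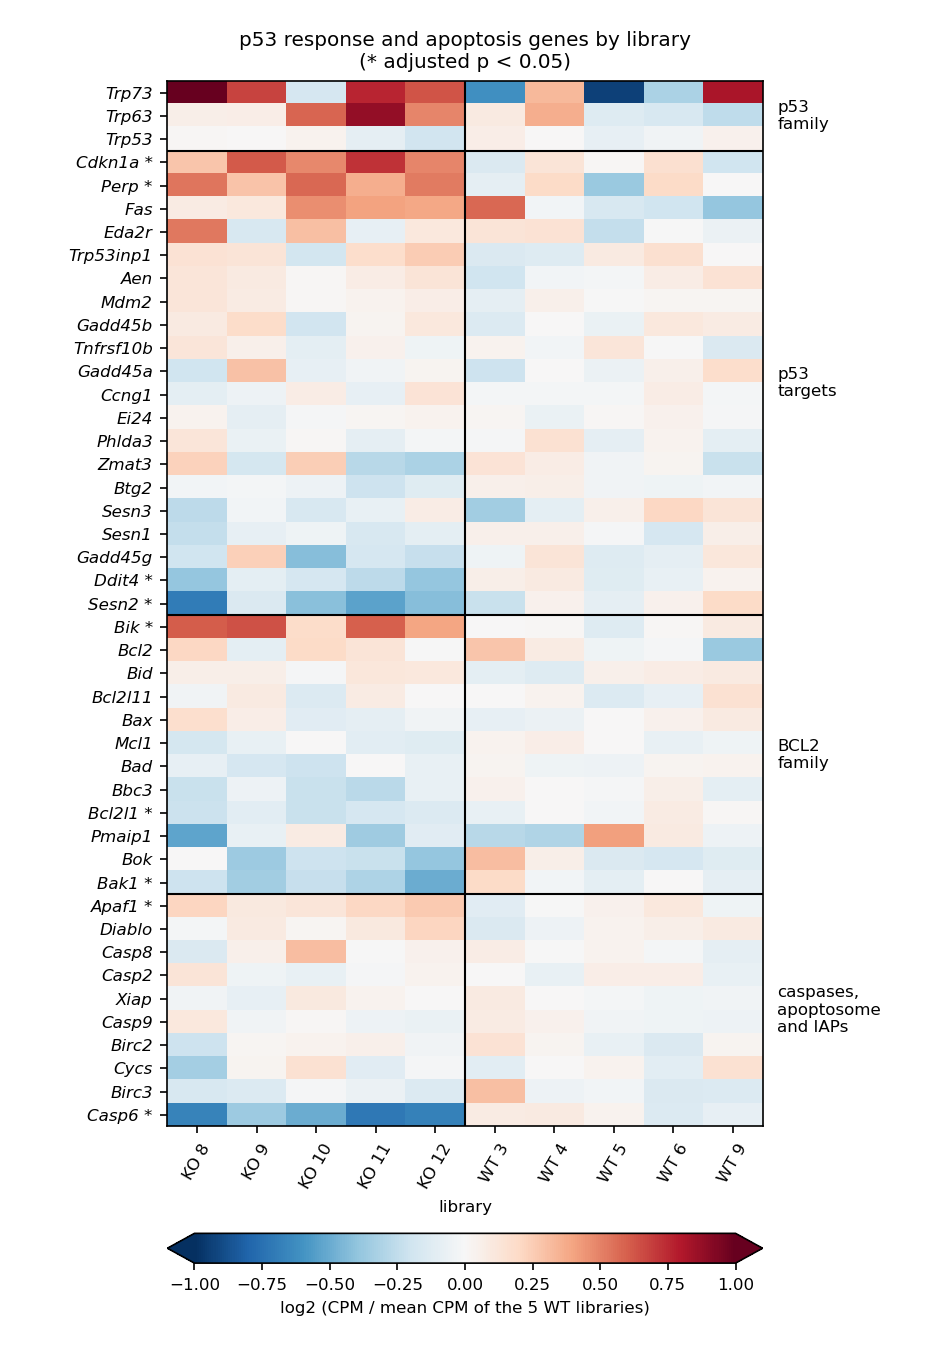
Log2 of the CPM of each member in each library over the mean of the 5 WT libraries, KO libraries on the left, members grouped by class and ordered by fold change, with colours capped at 1 and members past the test starred. Bands of 1 colour across all 5 KO libraries are seen in Cdkn1a, Perp and Bik (higher) and in Casp6, Bak1 and Sesn2 (lower), while most rows are pale in both groups.

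The classes are set side by side here as counts, without a test between them. The share to set beside each count of called genes, here and below, is the 13.8% of all tested genes. Of 20 p53 targets 4 passed (20%), 2 higher and 2 lower, with a median log2 fold change of 0.00. Of 12 BCL2 family genes 3 passed (25%), 1 higher and 2 lower, with a median of -0.10. Of 10 caspase, apoptosome and IAP genes 2 passed (20%), 1 higher and 1 lower, with a median of 0.00. Of the 3 p53 family genes none passed, and 1 did at an unadjusted p under 0.05, beside 29.9% of all genes. Each class with called members had them in both directions.

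**Figure D2:**
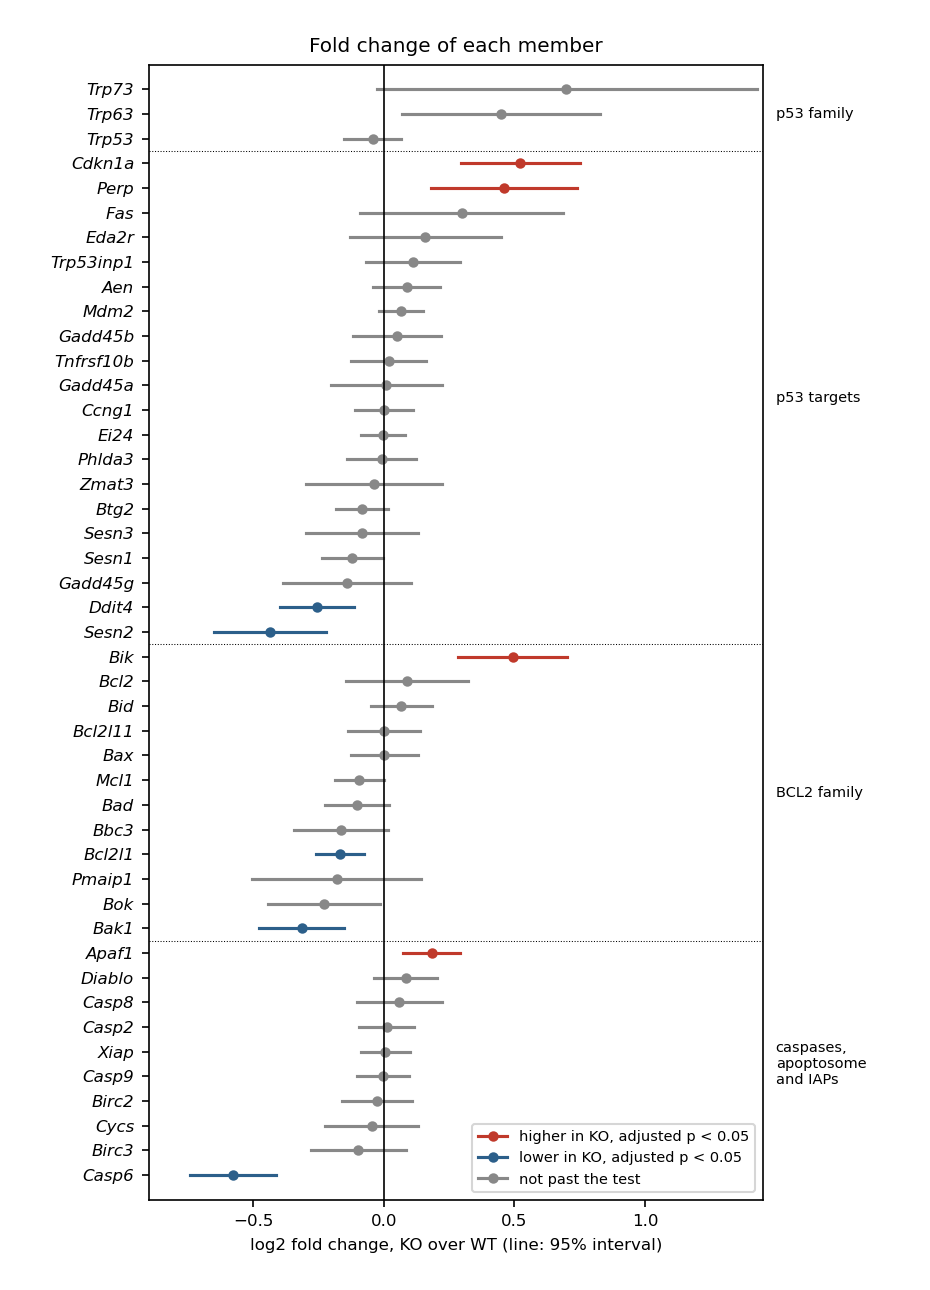
Fitted log2 fold change of each member, KO over WT, with its 95% interval from edgeR, by class. Red points (higher in KO) and blue points (lower in KO) passed the test, and the intervals run from narrow ones around Mdm2 and Ei24 to the wide ones of the scarce Trp73 and Trp63.

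None of the 3 p53 family genes passed the test. Trp53, which encodes p53, had 92.4, 91.9, 94.1, 86.3 and 80.1 CPM in KO libraries 8 to 12, against 95.8, 91.9, 86.5, 89.5 and 94.5 CPM in WT libraries 3, 4, 5, 6 and 9. KO 11 and KO 12 lay below the lowest WT library and the other KO libraries inside the WT range, with means of 89 ± 5.75 CPM in KO and 91.6 ± 3.74 CPM in WT (SD, n = 5 each). Its fitted change was small (log2 fold change -0.04, SE 0.0505, edgeR adjusted p = 0.614), with a 95% interval of -0.15 to 0.07 on the log2 scale. Trp63 encodes p63, known for its role in epithelia and in the surveillance of female germ cells. It had 3.92, 3.94, 5.64, 6.92 and 5.29 CPM in KO libraries 8 to 12, against 4, 4.86, 3.45, 3.38 and 3.16 CPM in WT libraries 3, 4, 5, 6 and 9. KO 10, KO 11 and KO 12 lay above every WT library and the other KO libraries lay inside the WT range. The edgeR call was missed after adjustment (log2 fold change 0.45, SE 0.174, edgeR adjusted p = 0.107), although the unadjusted p was 0.0242. Trp73, which encodes p73, was the scarcest member, with 1.47, 0.952, 0.531, 1.02 and 0.925 CPM in KO libraries 8 to 12, against 0.391, 0.748, 0.313, 0.479 and 1.05 CPM in WT libraries 3, 4, 5, 6 and 9. Its groups overlapped, with KO 8 above all WT libraries and KO 10 among the low WT values (log2 fold change 0.70, SE 0.334, edgeR adjusted p = 0.183). The 95% interval of Trp73, -0.03 to 1.43, was the widest of all members. An antisense gene, Trp73os, overlaps its exons, and since the use of strand in the counting is not given, reads of the pair cannot be told apart.

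Among targets of growth arrest and repair, 1 of 6 passed. Cdkn1a encodes p21, the inhibitor of cyclin-dependent kinases through which p53 halts the cell cycle (ENSMUSG00000023067, GRCm38 chromosome 17, 29090976 to 29100727, plus strand). It had 7.46, 9.38, 8.55, 10.2 and 8.61 CPM in KO, against 5.57, 6.71, 6.21, 6.88 and 5.36 CPM in WT. Every KO library lay above every WT library, since the lowest KO value, in KO 8, exceeded the highest WT value, in WT 6. The means were 8.83 ± 1.01 CPM in KO and 6.14 ± 0.671 CPM in WT (SD, n = 5 each), a 1.44-fold difference (log2 fold change 0.52, SE 0.104, edgeR adjusted p = 0.00751). The call stood in all 18 alternatives run, at a log2 fold change of 0.47 to 0.58. A minus-strand gene model overlaps an exon of Cdkn1a, so some of its reads could belong to that model. The other genes of growth arrest and repair did not pass. Ccng1 (cyclin G1) had a fitted log2 fold change of 0.00 with a 95% interval of -0.11 to 0.11, and Btg2, an antiproliferative gene, -0.08 with -0.18 to 0.02. The stress sensors Gadd45a, Gadd45b and Gadd45g had log2 fold changes of 0.01, 0.05 and -0.14. The exons of Gadd45a overlap those of E230016M11Rik on the other strand.

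Mdm2, the feedback inhibitor, had 107, 104, 99, 101 and 103 CPM in KO, against 92.3, 101, 98, 99.3 and 99.3 CPM in WT. KO 8, KO 9 and KO 12 lay above the highest WT library and the other KO libraries inside the WT range, with means of 103 ± 2.9 CPM in KO and 98.1 ± 3.43 CPM in WT (SD, n = 5 each). The difference did not pass the test (log2 fold change 0.07, SE 0.0382, edgeR adjusted p = 0.278), and its 95% interval was -0.02 to 0.15. Mdm2 also had the tightest spread of any member among KO libraries, with a coefficient of variation of 2.82%.

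The promoter windows of RefSeq (build GRCm38.p6), 250 bases before to 50 bases after a start, were searched for the p53 half-site, the 10-letter motif that p53 binds in pairs. It reads the same on both strands. A window was at hand for 38 of 45 members, and 10 of these held a half-site, beside 9.55% of all genes with a window. Besides Cdkn1a they were Trp53, Mdm2, Ccng1, Gadd45a, Sesn1, Ei24, Aen, Bax and Birc2. A pair of half-sites with 0 to 13 bases between them was found in 1 member, Cdkn1a, beside 0.0740% of all genes. The half-sites of Cdkn1a lie 12 bases apart in the window of the upstream start, and the window of a second start 2.79 kb further on held none. Only exact matches were counted and marked. The 10 bases right after the second half-site, tgacatgttc, miss the motif at their first letter only. The marked pair therefore need not be the pair that p53 binds. The window is shown because Cdkn1a was the called member with matches, and a 30-base stretch is given for Trp53, Mdm2, Bax and Sesn1, which held a half-site and were not called. Capitals mark the half-sites, and sequences run 5′ to 3′ on the strand of the gene.
Cdkn1a, chr17:29090729-29091028, plus strand: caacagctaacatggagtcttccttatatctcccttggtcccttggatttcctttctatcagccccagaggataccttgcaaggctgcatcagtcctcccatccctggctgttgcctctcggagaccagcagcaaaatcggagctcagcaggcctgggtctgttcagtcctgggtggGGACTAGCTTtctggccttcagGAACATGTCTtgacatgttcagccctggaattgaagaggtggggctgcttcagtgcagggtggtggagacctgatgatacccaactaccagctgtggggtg
Trp53, chr11:69580274-69580303, plus strand: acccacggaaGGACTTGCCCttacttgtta
Mdm2, chr10:117710925-117710954, minus strand: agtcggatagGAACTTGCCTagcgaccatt
Bax, chr7:45467080-45467109, minus strand: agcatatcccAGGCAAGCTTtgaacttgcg
Sesn1, chr10:41887256-41887285, plus strand: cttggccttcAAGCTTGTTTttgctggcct

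The half-sites of Cdkn1a begin 73 and 51 bases before its upstream start, that of Trp53 75, that of Mdm2 186, that of Sesn1 173 and that of Bax 201 bases before theirs. Of the 10 members with a half-site, Cdkn1a alone passed the expression test, beside 13.8% of all tested genes. That count is close to the background and gives no result about members with a half-site. The letters AGGTCA, the half-site of many nuclear receptors, were found on either strand in the windows of 3 of 38 members (Bcl2l1, Btg2 and Xiap), beside 18.1% of all genes. No member held both motifs. A match in these windows describes the sequence only and is not a measured binding site.

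The listed targets that restrain the TOR kinase or act against oxidative stress are only 4 members, too few for a result about direction. Fitted values lay below 0 in 4 of 4, beside 46.7% of all genes, and 2 passed, beside 13.8% of all genes. Sesn2 encodes sestrin 2, a leucine sensor that inhibits TOR complex signalling (ENSMUSG00000028893, chromosome 4, 132492032 to 132510501, minus strand). It had 42.2, 62, 51.4, 47.3 and 51.2 CPM in KO, against 59, 70.8, 64.4, 70.8 and 78.2 CPM in WT. KO 9 reached into the WT range, above WT 3, and the other 4 KO libraries lay below every WT library. The means were 50.8 ± 7.28 CPM in KO and 68.7 ± 7.29 CPM in WT (SD, n = 5 each), 1.35-fold lower in KO (log2 fold change -0.43, SE 0.0983, edgeR adjusted p = 0.0142). The call stood in all 18 alternatives. Ddit4 encodes REDD1, another inhibitor of TOR signalling that is induced by stress and glucocorticoids (ENSMUSG00000020108, chromosome 10, 59949669 to 59951834, minus strand). It had 93.1, 114, 108, 101 and 92.9 CPM in KO, against 127, 129.5, 112, 116 and 124 CPM in WT. KO 9 again overlapped WT, lying above WT 5, and the other KO libraries lay below all WT libraries. The means were 102 ± 9.12 CPM in KO and 122 ± 7.68 CPM in WT (SD, n = 5 each), 1.19-fold lower in KO (log2 fold change -0.26, SE 0.0645, edgeR adjusted p = 0.0227). The Ddit4 call was lost without KO 11, KO 12 or WT 4 (edgeR adjusted p up to 0.0598), at log2 fold changes of -0.35 to -0.22 over the alternatives. Sesn1 had a log2 fold change of -0.12 (edgeR adjusted p = 0.151) and Sesn3 of -0.09 (edgeR adjusted p = 0.605).

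Of the other p53 targets, 1 of 7 passed. Perp encodes a membrane protein of desmosomes that takes part in p53-dependent cell death (ENSMUSG00000019851, chromosome 10, 18845020 to 18857073, plus strand). It was scarce, with 2.89, 2.42, 2.96, 2.55 and 2.85 CPM in KO, against 1.87, 2.27, 1.54, 2.27 and 1.99 CPM in WT. The lowest KO library, KO 9, lay just above the highest WT libraries, WT 4 and WT 6, so the groups did not overlap. The means were 2.73 ± 0.235 CPM in KO and 1.99 ± 0.309 CPM in WT (SD, n = 5 each), a 1.37-fold difference (log2 fold change 0.46, SE 0.129, edgeR adjusted p = 0.0352). Perp is also expressed in epithelia, and duct epithelium markers, given above, were higher in the same KO libraries, and their part in the Perp value was not tested. The Perp call was lost in 9 of 18 alternatives, namely without KO 8, KO 10, KO 11, KO 12, WT 3, WT 5 or WT 9, without KO 9 and KO 10 together, and with no filter on low counts (edgeR adjusted p up to 0.0772), while the log2 fold change stayed at 0.38 to 0.51. The autophagy gene Trp53inp1 (0.11), the nuclease gene Aen (0.09), Phlda3, an inhibitor of AKT signalling (-0.01), Zmat3, which encodes an RNA-binding zinc finger protein (-0.04), and Ei24 of the endoplasmic reticulum (0.00) had log2 fold changes that did not pass. The exons of Ei24 overlap those of Gm26787 on the other strand.

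The death receptors among the targets were scarce and did not pass, with 3 of 3 fitted above 0, beside 53.3% of all genes. Fas, the receptor of FAS ligand, averaged 1.98 ± 0.241 CPM in KO and 1.61 ± 0.46 CPM in WT (SD, n = 5 each; log2 fold change 0.30, SE 0.179, edgeR adjusted p = 0.289). WT 3 held the highest Fas value of all libraries, and among the 18 alternatives edgeR called Fas in 1, the one without that library. Tnfrsf10b, the mouse receptor for the death ligand TRAIL, had a log2 fold change of 0.02, and Eda2r, a receptor for ectodysplasin, of 0.16.

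**Figure D3:**
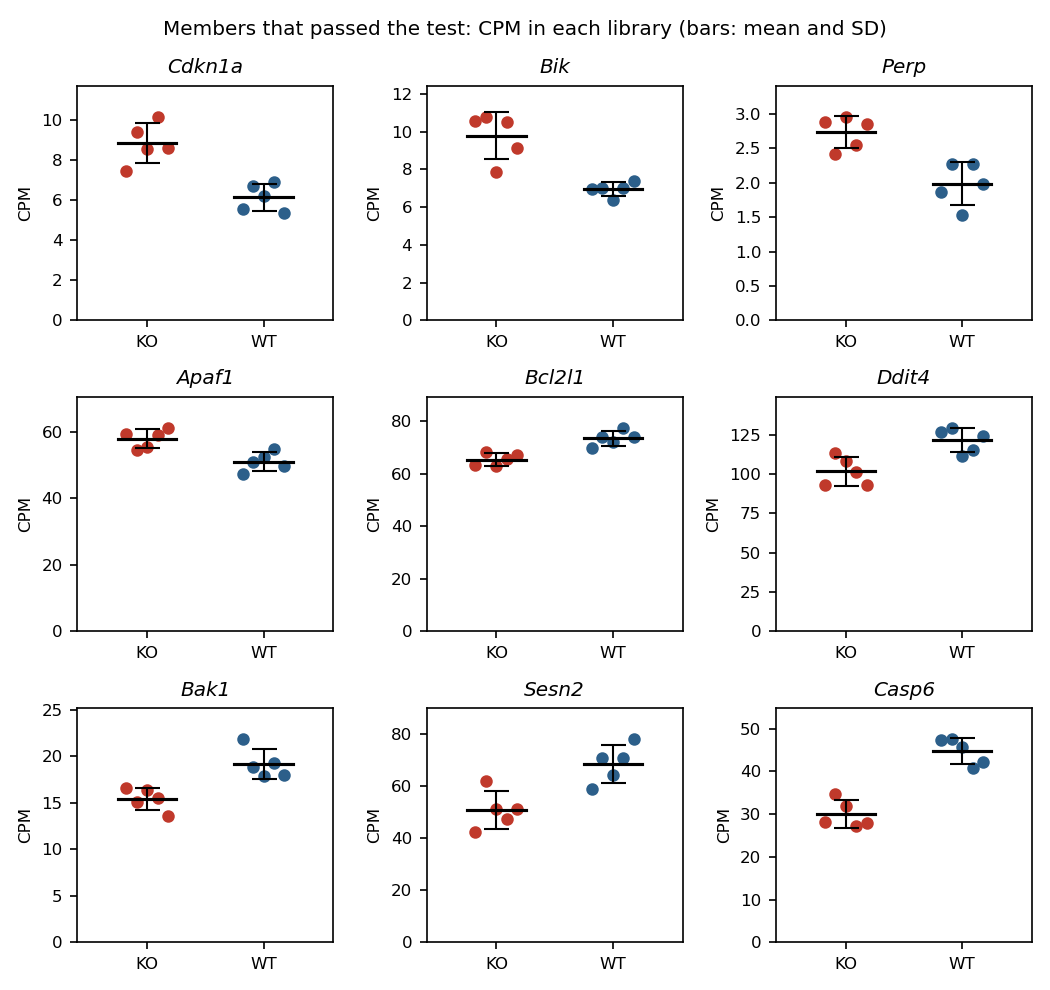
CPM in each library of the 9 members that passed the test, KO on the left and WT on the right of each panel, with bars for the mean and SD (n = 5 each) and axes from 0. The groups are apart in Cdkn1a, Bik, Perp, Bcl2l1, Bak1 and Casp6 and overlap by single libraries in Apaf1, Ddit4 and Sesn2.

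Of the 3 guardians of the BCL2 family, 1 passed. Bcl2l1 encodes BCL-XL, the guardian needed for the survival of early male germ cells in mice (ENSMUSG00000007659, chromosome 2, 152780668 to 152831728, minus strand). It had 63.3, 68.3, 62.8, 65.4 and 66.9 CPM in KO, against 69.7, 73.8, 72, 77.5 and 74 CPM in WT. All KO libraries lay below all WT libraries, though KO 9 came close to WT 3. The means were 65.3 ± 2.33 CPM in KO and 73.4 ± 2.86 CPM in WT (SD, n = 5 each), 1.12-fold lower in KO (log2 fold change -0.17, SE 0.0415, edgeR adjusted p = 0.0213). The call was lost without KO 11 and with library totals as the scaling (edgeR adjusted p up to 0.0618), at log2 fold changes of -0.19 to -0.13. Mcl1, a short-lived guardian, had 181, 194, 205, 190.2 and 188 CPM in KO, against 209.7, 215, 206, 194 and 199 CPM in WT. KO 10 lay inside the WT range and the other KO libraries below the lowest WT library, WT 6. Mcl1 passed at an unadjusted p of 0.0472 and not after adjustment (log2 fold change -0.09, SE 0.0428, edgeR adjusted p = 0.161). Bcl2 itself had 19.6, 15.8, 19.4, 18.6 and 16.9 CPM in KO, against 20.5, 17.9, 16.5, 16.8 and 13.1 CPM in WT. Every KO library lay inside the wider WT range (log2 fold change 0.09, SE 0.107, edgeR adjusted p = 0.62; 95% interval -0.14 to 0.32). The exons of Bcl2 overlap those of D630008O14Rik on the other strand.

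Of the 3 effectors, 1 passed. Bax, the effector on which germ cell death in the young mouse testis depends, had 63.7, 59.5, 52.4, 53.3 and 55.6 CPM in KO, against 53.6, 54.6, 57, 58.5 and 60.4 CPM in WT. The highest value was in KO 8 and the lowest in KO 10, so KO spanned the whole WT range. The means were 56.9 ± 4.7 CPM in KO and 56.8 ± 2.79 CPM in WT (SD, n = 5 each; log2 fold change 0.00, SE 0.059, edgeR adjusted p = 0.993; 95% interval -0.13 to 0.13). The exons of Bax overlap those of Gm45808 on the same strand, so some of its reads could belong to that gene model. Bak1 encodes BAK, the close relative of BAX (ENSMUSG00000057789, chromosome 17, 27019810 to 27029009, minus strand). It had 16.6, 15.1, 16.3, 15.5 and 13.6 CPM in KO, against 21.9, 18.8, 17.9, 19.2 and 18 CPM in WT. Every KO library lay below every WT library, and the means were 15.4 ± 1.18 CPM in KO and 19.2 ± 1.62 CPM in WT (SD, n = 5 each), 1.24-fold lower in KO (log2 fold change -0.31, SE 0.0752, edgeR adjusted p = 0.018). The Bak1 call stood in all 18 alternatives. The exons of Bak1 overlap those of Ggnbp1 on the other strand, a gene at 16 ± 1.1 CPM in KO and 17.8 ± 2.19 CPM in WT (SD, n = 5 each) that did not pass (log2 fold change -0.15, edgeR adjusted p = 0.255), and reads of the pair cannot be told apart. Bok, the third effector, had a log2 fold change of -0.23 (edgeR adjusted p = 0.144, unadjusted p = 0.0392), with 4 KO libraries below the lowest WT library and KO 8 inside the WT range.

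Among the 6 BH3-only genes, Bik passed. BIK is a BH3-only protein that in mice acts, with BIM, in the death of germ cells of the young testis (ENSMUSG00000016758, chromosome 15, 83526862 to 83544634, plus strand). It had 10.5, 10.8, 7.87, 10.5 and 9.12 CPM in KO, against 6.95, 6.99, 6.36, 7 and 7.38 CPM in WT. All KO libraries lay above all WT libraries, with KO 10 nearest to WT 9. The means were 9.77 ± 1.25 CPM in KO and 6.94 ± 0.366 CPM in WT (SD, n = 5 each), a 1.41-fold difference (log2 fold change 0.49, SE 0.0964, edgeR adjusted p = 0.0069), and the call stood in all 18 alternatives. Bcl2l11, which encodes BIM, averaged 41.3 ± 2.66 CPM in KO and 41.2 ± 3.24 CPM in WT (SD, n = 5 each; log2 fold change 0.00, SE 0.0634, edgeR adjusted p = 0.988). The p53-induced BH3-only genes Bbc3 (PUMA) and Pmaip1 (NOXA) had log2 fold changes of -0.17 (edgeR adjusted p = 0.202) and -0.18 (edgeR adjusted p = 0.452). Bid, which links death receptors to mitochondria, stood at 0.07, and Bad, a BH3-only protein governed by survival kinases, at -0.10. The exons of Bid and of Bad overlap those of Bcl2l13 and Gpr137 on the other strand.

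The balance of Bax and the guardians was also taken within each library, as a log2 ratio of counts that needs no scaling between libraries. It uses the same counts as the tests above. Bax had a log2 fold change of 0.00 and Bcl2l1 of -0.17, so their ratio restates the Bcl2l1 difference and is no separate support for it. The ratio of Bax to Bcl2l1 was 0.01, -0.20, -0.26, -0.30 and -0.27 in KO 8 to 12, against -0.38, -0.43, -0.34, -0.40 and -0.29 in WT 3, 4, 5, 6 and 9. In 4 of 5 KO libraries it lay above the highest WT value, that of WT 9, and KO 11 lay just below that value. The means were -0.20 ± 0.12 in KO and -0.37 ± 0.06 in WT (SD, n = 5 each), a difference of 0.17 (exact two-sided permutation p = 0.0159, adjusted over 3 ratios 0.0476). KO 8 stood highest, and without it the difference was 0.11. Leaving out 1 library raised the adjusted p to 0.0952 in 8 of 10 cases, and leaving out KO 9 and KO 10 together raised it to 0.214 with a difference of 0.18. The ratio of Bax to Bcl2 differed by -0.10 (exact two-sided permutation p = 0.571, adjusted 0.571) and that of Bax to Mcl1 by 0.09 (exact p = 0.365, adjusted 0.548). With 5 mice against 5 the smallest p of this test is 0.00794. Leaving out mice leaves fewer assignments and a larger smallest p. The raised adjusted p-values therefore cannot show whether the difference weakened.

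**Figure D4:**
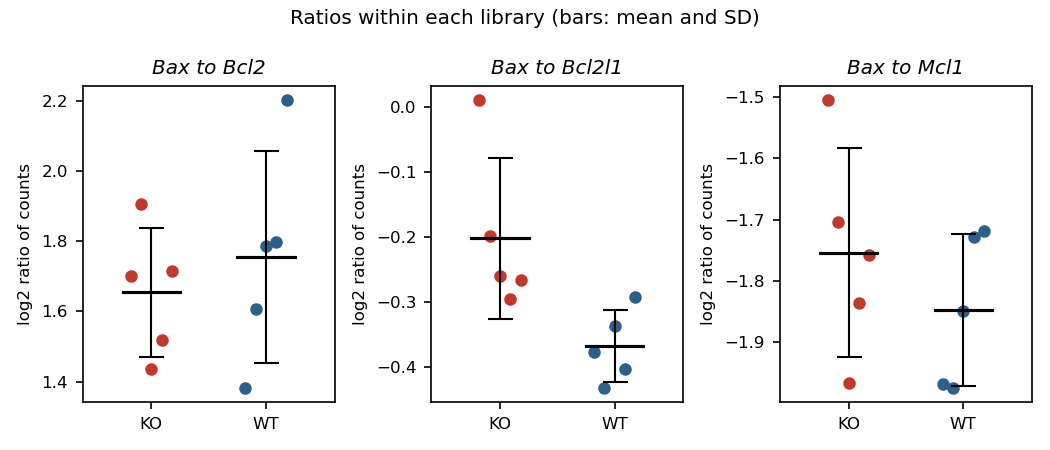
Log2 ratio of the counts of Bax to those of Bcl2, Bcl2l1 and Mcl1 within each library, KO on the left, with the mean and SD (n = 5 each); the vertical axes differ between panels and do not start at 0. In Bax to Bcl2l1 all KO values but that of KO 11 lie above the WT values, and in the other ratios the groups overlap.

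Among the caspases, 1 of 4 passed. Casp6 encodes an executioner caspase known for cleaving nuclear lamins (ENSMUSG00000027997, chromosome 3, 129901425 to 129914103, plus strand). It had 28.1, 34.8, 31.8, 27.2 and 28 CPM in KO, against 47.4, 47.7, 45.8, 40.7 and 42.3 CPM in WT. The highest KO value, in KO 9, lay below the lowest WT value, in WT 6. The means were 30 ± 3.22 CPM in KO and 44.8 ± 3.13 CPM in WT (SD, n = 5 each), 1.49-fold lower in KO, and its adjusted p was the smallest of any member (log2 fold change -0.58, SE 0.0753, edgeR adjusted p = 0.000636). The call stood in all 18 alternatives, at log2 fold changes of -0.69 to -0.54. The initiator gene Casp9 had 77.5, 70.1, 72.6, 69.4 and 68.7 CPM in KO, against 76, 74, 70.1, 69.7 and 69.5 CPM in WT. KO values ran from just below to just above the WT range (log2 fold change 0.00, SE 0.0456, edgeR adjusted p = 0.963; 95% interval -0.10 to 0.09). Pancreatic protease genes overlap exons of Casp9 on the other strand. Casp2, whose product acts with the p53-induced PIDD1, and Casp8, the initiator below death receptors, had log2 fold changes of 0.01 and 0.06.

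Of the apoptosome genes, Apaf1 passed. Apaf1 encodes the scaffold of the apoptosome (ENSMUSG00000019979, chromosome 10, 90989311 to 91082770, minus strand), and lies 1.46 Mb from Nr1h4, the gene that is null in KO. It had 59.3, 54.5, 55.5, 58.9 and 61.3 CPM in KO, against 47.2, 51, 52.5, 54.8 and 49.6 CPM in WT. KO 9 lay just inside the WT range, below WT 6, and the other 4 KO libraries lay above it. The means were 57.9 ± 2.8 CPM in KO and 51 ± 2.87 CPM in WT (SD, n = 5 each), a 1.13-fold difference (log2 fold change 0.18, SE 0.0503, edgeR adjusted p = 0.0331). The call was lost in 7 of 18 alternatives, without KO 8, KO 11, KO 12, WT 3, WT 4, WT 5 or WT 9 (edgeR adjusted p up to 0.0814), at log2 fold changes of 0.15 to 0.23. Cycs, the cytochrome c gene, averaged 125 ± 15.4 CPM in KO and 129 ± 9.74 CPM in WT (SD, n = 5 each; log2 fold change -0.05, SE 0.0821, edgeR adjusted p = 0.749). Cycs has processed pseudogenes that can share its reads, so its value is uncertain.

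None of the 3 IAP genes and their antagonist Diablo passed. Birc2, the most abundant of this class per kilobase, had 174, 203, 205, 207 and 196 CPM in KO, against 222, 204, 190.1, 182 and 205 CPM in WT. Both groups covered about the same range, with the highest value in WT 3 and the lowest in KO 8 (log2 fold change -0.03, SE 0.0619, edgeR adjusted p = 0.82). Xiap, the direct caspase inhibitor, had a log2 fold change of 0.01 with a 95% interval of -0.09 to 0.10. Birc3 stood at -0.10 and Diablo, whose product displaces IAPs from caspases, at 0.08. The exons of Diablo overlap those of genes on both strands.

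Levels were compared between members per kilobase of exon, since longer transcripts collect more reads. The order of the 6 most abundant members was the same in both genotypes, Ddit4, Mcl1, Bok, Birc2, Cycs and Bax. Ddit4 stood at 58 ± 5.2 CPM per kb in KO and 69.3 ± 4.38 CPM per kb in WT. Mcl1 stood at 56.1 ± 2.55 CPM per kb in KO and 59.9 ± 2.41 CPM per kb in WT, so that in KO these neighbours in the order did not differ beyond their spread. Bax followed at 36.1 ± 2.98 CPM per kb in KO and 36.1 ± 1.77 CPM per kb in WT and Trp53 at 22 ± 1.42 CPM per kb in KO and 22.7 ± 0.925 CPM per kb in WT. At the other end stood Cdkn1a, with 2.49 ± 0.284 CPM per kb in KO and 1.73 ± 0.189 CPM per kb in WT, Bcl2, with 1.97 ± 0.177 CPM per kb in KO and 1.85 ± 0.294 CPM per kb in WT, and Trp73, with 0.177 ± 0.0606 CPM per kb in KO and 0.108 ± 0.0549 CPM per kb in WT. Cdkn1a ranked 36 of 45 in KO and 40 of 45 in WT. Among the called members the highest level per kilobase was that of Ddit4 and the lowest that of Perp, with 1.4 ± 0.12 CPM per kb in KO and 1.02 ± 0.158 CPM per kb in WT.

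**Figure D5:**
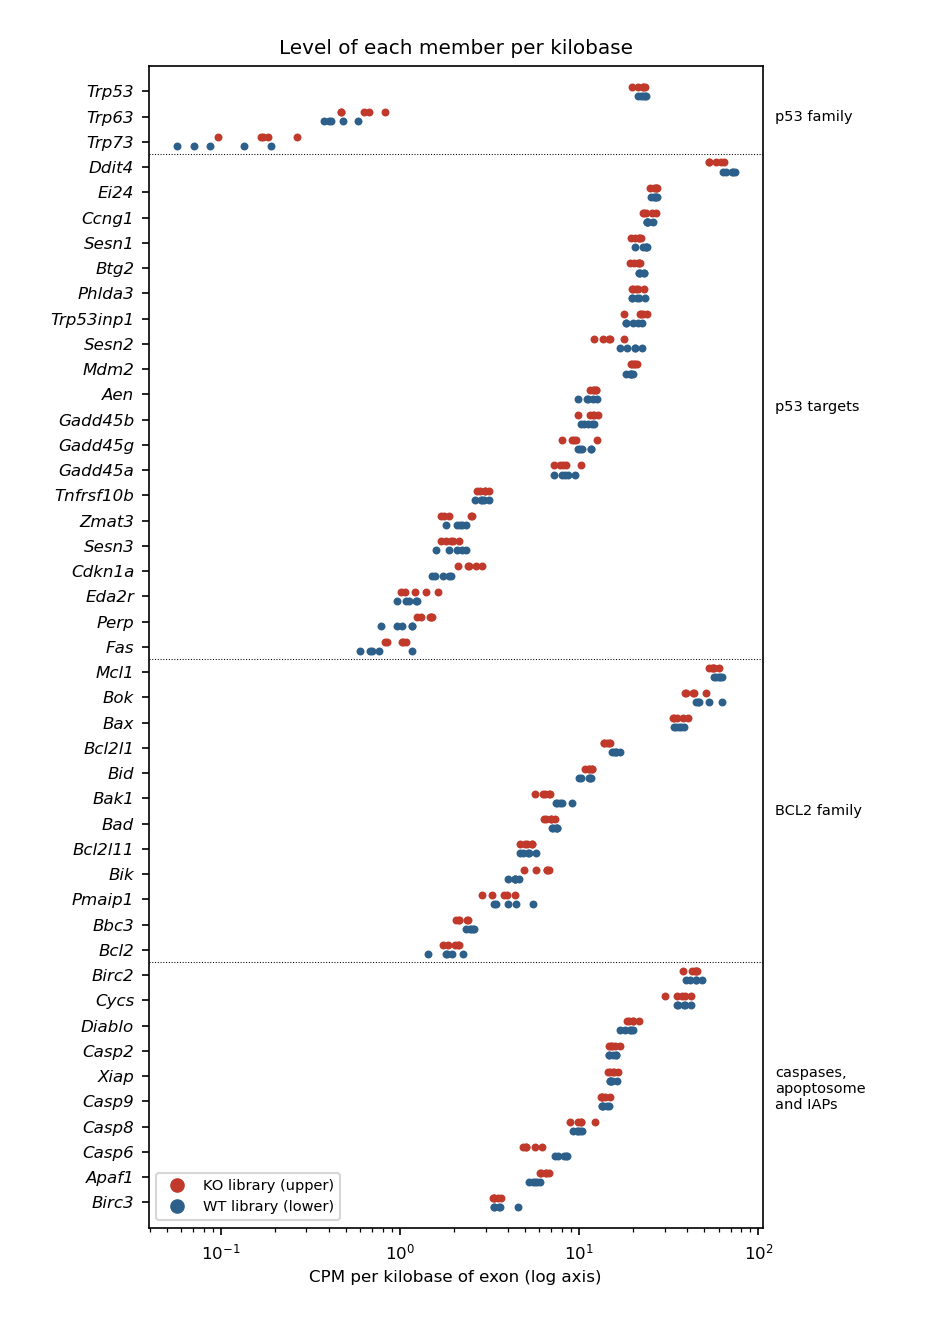
Level of each member per kilobase of exon (CPM per kb, log axis) in each library, KO points above WT points in each row, members ordered by WT level within their class. Ddit4 and Mcl1 lie at the right, Trp63 and Trp73 far to the left of Trp53, and KO and WT points fall together in most rows.

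Each library held the highest value of its genotype in some members and the lowest in others, though not evenly. KO 8 held the highest KO value in 11 members and the lowest in 15, KO 10 the highest in 11 and the lowest in 14, and KO 11 the highest in 5 and the lowest in 4. Among WT libraries, WT 9 was highest in 12 members and lowest in 10, WT 3 highest in 11 and lowest in 11, and WT 5 highest in 2 and lowest in 10. The median coefficient of variation of the members was 7.68% in KO and 7.04% in WT, beside 9.73% and 9.55% over all tested genes. Of the 9 called members, 5 kept their call without KO 11, 6 without KO 12 and 7 to 9 without any other single library.

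Around the called members other genes passed the test as well, counted here after their values were seen. Within 5 Mb of Cdkn1a 57 of 257 tested genes passed (22.2%), and within 5 Mb of Bak1, in an overlapping stretch of chromosome 17, 53 of 224 (23.7%), beside 20.5% on that chromosome and 13.8% in all. The stretch around Apaf1 holds Nr1h4 itself, and there 15 of 75 genes passed (20%), or 14 of 74 (18.9%) with Nr1h4 left out, beside 13.1% on chromosome 10. Ddit4 and Perp, on the same chromosome, lie 29.5 and 70.6 Mb from Nr1h4, with shares of 13.2% and 9.62% around them. Around Casp6 the share was 12.8%, beside 19.1% on chromosome 3 as a whole. The share was 16.1% around Bcl2l1, 8.23% around Bik and 5.85% around Sesn2. Cfi, a complement gene beside Casp6 on chromosome 3, was higher in KO, with 171, 192, 486, 310 and 368 counts in KO 8 to 12, against 55, 64, 37, 46 and 52 counts in WT 3, 4, 5, 6 and 9 (log2 fold change 2.40, edgeR adjusted p = 0.000151). The labels do not give the strain of origin of these stretches in each mouse, so near Nr1h4 the null allele and strain alleles linked to it cannot be told apart.

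Of 60 further genes of the same pathways that are no members, 56 were tested and 9 passed (16.1%), 4 higher and 5 lower, beside 13.8% of all genes. In 8 of the 56 the groups did not overlap, beside 11.6% of all genes. Fasl, Tnf, Bcl2l10 and Bcl2l14 had too few reads to be tested. Among p53 regulators 2 of 10 passed. Hipk2, a kinase that activates p53, was lower, with 29.3, 28.8, 29.1, 25 and 25.7 CPM in KO, against 31.2, 36.3, 33.1, 39.7 and 36.8 CPM in WT (log2 fold change -0.36, SE 0.0736, edgeR adjusted p = 0.00828). Chek1, the checkpoint kinase, was higher, with 50.2 ± 3.43 CPM in KO and 40.2 ± 5.24 CPM in WT (SD, n = 5 each; log2 fold change 0.32, SE 0.0851, edgeR adjusted p = 0.0286), a call lost without KO 8, KO 11, KO 12 or WT 4 (edgeR adjusted p up to 0.0716). The groups did not overlap in either gene. Of 20 further p53 targets 3 passed. Ckap2, a spindle protein gene, was higher, with 62.5 ± 5.22 CPM in KO and 52.3 ± 3.35 CPM in WT (SD, n = 5 each; log2 fold change 0.26, SE 0.0626, edgeR adjusted p = 0.0195), while Pml, the organiser of nuclear bodies, was lower, with 45.8 ± 4.35 CPM in KO and 54 ± 3.06 CPM in WT (SD, n = 5 each; log2 fold change -0.24, SE 0.0667, edgeR adjusted p = 0.0339), as was Tigar, a glycolysis regulator named here to complete the count. The Ckap2 call was lost without WT 4 (edgeR adjusted p = 0.0532). The Pml call was lost in 7 of 18 alternatives, with library totals and without KO 9, KO 11, KO 12, WT 3, WT 4 or WT 5 (edgeR adjusted p up to 0.0853). The Tigar call was lost in 14, including every library left out but WT 3 (edgeR adjusted p up to 0.101).

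Of 6 tested genes of death receptor signalling 3 passed. Tnfrsf1a, the main receptor of tumour necrosis factor, had 72.1, 79.2, 87.7, 76.7 and 73.7 CPM in KO, against 97.9, 101, 93.9, 91.7 and 93.2 CPM in WT. All KO libraries lay below all WT libraries (log2 fold change -0.29, SE 0.0546, edgeR adjusted p = 0.00556). Tnfsf10, which encodes the death ligand TRAIL, had 4.21, 5.33, 3.8, 4.48 and 3.52 CPM in KO, against 2.68, 3.31, 2.66, 3.02 and 2.14 CPM in WT. All KO libraries lay above all WT libraries, and the level was low in both (log2 fold change 0.63, SE 0.144, edgeR adjusted p = 0.0148). Cflar, whose product FLIP blocks CASP8, was lower, with 77.2 ± 7.93 CPM in KO and 93.5 ± 9.3 CPM in WT (SD, n = 5 each) and some overlap (log2 fold change -0.28, SE 0.0803, edgeR adjusted p = 0.04). The Cflar call was lost in 11 of 18 alternatives, including every library left out but KO 10 and WT 6 (edgeR adjusted p up to 0.0938). Of 13 further genes of caspases, IAPs and execution, Birc5, which encodes survivin, a protein of dividing cells, was higher, with 48.2 ± 3.15 CPM in KO and 40.3 ± 3.87 CPM in WT (SD, n = 5 each; log2 fold change 0.26, SE 0.0704, edgeR adjusted p = 0.0326), a call lost without KO 8, KO 11, KO 12, WT 4 or WT 9 (edgeR adjusted p up to 0.0694). None of 7 tested further BCL2 family genes passed. Tnfrsf1a, Hipk2 and Tnfsf10 kept their calls in all 18 alternatives.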

How the data were processed

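RNA of testes frozen on dry ice went into Illumina TruSeq RNA libraries, per the labels' protocols. FastQC 0.10.1, CASAVA, Bowtie, TopHat2 2.0.10, Bowtie2 2.1.0 and build mm10 are named in the submitters' processing notes with no role or order. Counter, annotation release and strand setting: not given in the sources used here. Each value used is from the deposited table's columns of raw read counts, per the file headers. Its normalized columns had lost their decimal marks and were not used. No column belonged to other samples.

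Date-like symbols (26) were set right through their Ensembl identifier. Positions and exon lengths came from GENCODE M21 on GRCm38, the same build, and 507 unmatched identifiers held 0.200% of counts. After filterByExpr and TMM scaling, all 18559 remaining genes were fitted with edgeR 4.0.16 (R 4.3.3) on genotype alone, with the two-sided quasi-likelihood F-test and p-values adjusted by Benjamini-Hochberg. Called means an adjusted p under 0.05. CPM use the TMM factors, and CPM per kb divide by the union of a gene's exons. Bax ratios had a prior count of 2 added and were tested by exact permutation (scipy 1.17.1). The edgeR step was checked on simulated counts. Depth (32330029 counts or more) limits precision most in scarce genes, also above 1 CPM, as in Perp with 49 to 117 counts a library. The edgeR p-values set the difference between groups of 5 mice against a variance moderated across all genes. The 18 alternatives were 3 other scalings, 2 other filters, DESeq2 1.42.0, limma-voom (limma 3.58.1), each library left out and KO 9 and KO 10 left out together.

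All 45 members were accounted for. Values per library were given for called members, for Trp53, Trp63, Trp73, Mdm2, Cdkn1a, Bax, Bcl2, Bcl2l1, Mcl1, Casp9, for the most abundant member of each class and for the 3 called pathway genes with the smallest adjusted p. By the same rule up to 8 called pathway genes were named with their values. Members, lists and markers were chosen with earlier results of these data known. Some pathway genes are not reported here.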

Additional observations from a re-analysis of the deposited data

Results flagged for a closer look

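In 3 of 114 groups of 5 libraries checked, 1 library stood apart from the rest of its genotype, and chance flags about 1 in 20 groups. Ccng1, a p53 target, was highest in WT 6 at a log2 CPM of 6.50, while the other WT libraries lay at 6.40. Birc3, an IAP gene, was highest in WT 3 at 4.51, with the other WT libraries at 4.06 to 4.18. Ckap2, a spindle protein gene of the further p53 targets, was highest in KO 8 at 6.16, with the other KO libraries at 5.88 to 5.94.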

How the results depend on the processing

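Of the 9 called members, Cdkn1a, Sesn2, Bak1, Bik and Casp6 were called in all 18 alternatives, and no called member changed direction in any of them. The alternatives with another scaling, filter or tool called 8 or 9 members, 5 to 9 were called with 1 library left out and 8 without KO 9 and KO 10. Leaving out 1 library gave 2 to 4 members higher and 3 to 5 lower, 1 to 6 pathway genes higher and 2 to 7 lower, and, over all genes, 644 to 1191 higher and 780 to 1676 lower. The lowest totals came without KO 11 (1424 calls in all), WT 4 (1591) and KO 12 (1625), beside 2553. Pathway genes called lower numbered 3 with upper-quartile scaling, 2 with library totals and 3 with no filter. The difference in Bax to Bcl2l1 ran over 0.11 to 0.19 when 1 library was left out and was 0.18 without KO 9 and KO 10, where its adjusted p was 0.214. Fewer mice give fewer assignments, so these p-values cannot be as small. Bax to Bcl2, not called, ran over -0.19 to 0.0117 and changed sign without WT 9. The log2 fold change of Casp8, not called, was -0.0345 without KO 9 and KO 10. Among uncalled genes 71 of 646 pairs of gene and alternative changed sign. Among called pathway genes Tnfrsf1a, Hipk2 and Tnfsf10 kept their calls throughout, and the other 6 lost theirs in 1 (Ckap2) to 14 (Tigar) alternatives. The cause of these losses was not tested. No paired analysis was possible because the labels give no pairing of KO and WT mice.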
